A study of Homo sapiens with 4 samples.

Results

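The ABC transporter genes of DU145 and PC-3, both human prostate cancer lines, were examined after 48 h with OICR-9429 or with DMSO, its solvent. The compound blocks the contact between MLL histone methyltransferases and their adaptor WDR5. Each line gave 1 solvent library and 1 library from treated cells (120 µM for DU145, 150 µM for PC-3), 4 libraries in all. DU145 was kept in DMEM and PC-3 in RPMI1640, so neither dose nor medium can be told apart from the line. Members were the protein-coding genes whose symbol runs ABCA to ABCG followed by a number. GENCODE 29 holds 46 of them, and 42 were among the 27658 identifiers listed in the deposited files (39 in DU145, 41 in PC-3 and 38 in both). ABCB5, ABCC8, ABCC12 and the readthrough gene ABCF2-H2BK1 were not listed and have no value here.

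ABC proteins share an ATP-binding cassette that powers the movement of a substrate across a membrane. ABCB1 (P-glycoprotein), ABCG2 and several ABCC proteins export drugs or their glutathione and glucuronide conjugates, and are known for the multidrug resistance they can give tumour cells. ABCA1 and ABCG1 hand cholesterol to apolipoproteins and lipoprotein particles, and in many cells their genes are switched on by LXR, a nuclear receptor for oxysterols. ABCE1 and the ABCF proteins have no membrane part and act on ribosomes.

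Levels are in CPM, reads scaled to the total counted in a library, and each pair of levels gives the DMSO library first and the OICR-9429 library second. A change is the second minus the first as log2(CPM + 1), which shrinks the differences of low genes. A ratio is the second over the first in CPM, and the bounds after it are an exact 95% interval for counting error alone. No group has a replicate, so differences inside a line were not tested. A gene was counted as higher or lower when the change was at least 2-fold on that scale and the higher library reached 1 CPM.

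The libraries held about 55181000 to 58623000 reads. Epithelial markers were present in both lines (KRT8, a keratin, at 219 to 562 CPM). KLK3, a gene of androgen-driven prostate cells, was not listed in either line. Leukocyte markers summed to at most 0.648 CPM in any library. Of the endothelial and fibroblast markers, PECAM1 reached 27.2 CPM and COL1A1 68.1 CPM, both in PC-3. MKI67, the proliferation marker, read 486 then 100.1 CPM in DU145 and 472 then 28.7 CPM in PC-3, and its part in the results was not tested. CTNNA1, which PC-3 is known to lack as protein, was at 2.73 to 3.45 CPM there against 499 to 656 CPM in DU145. TMM and median-of-ratios scaling add 0.19 and 0.24 to the log2 of each DU145 ratio, and 0.03 and 0.02 in PC-3. Changes in log2(CPM + 1) shift by other amounts in low genes. In DU145, for example, that of ABCB4 went from −0.92 to −0.81 under TMM.

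In treated cells few ABC genes differed by 2-fold. In DU145 the sterol exporters ABCG1 and ABCG4 were lower. In PC-3 the lipid transporters ABCA5, ABCA10 and ABCA13 were higher, and ABCA1 and ABCE1 lower. No gene of drug efflux passed the rule in either line. In DU145, 0 of 30 members with at least 1 CPM were higher, against 0.999% of all genes at that level, and 2 (6.67%) were lower, against 8.01%. In PC-3, 3 of 28 (10.7%) were higher, against 7.15% of all genes, and 2 (7.14%) were lower, against 8.68%. These shares are near the background. In bulk RNA, fewer cells that express a gene and less of its RNA per cell cannot be told apart.

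The median change over all listed members was −0.02 in DU145 (39 genes) and −0.08 in PC-3 (41 genes). Over all listed genes the medians were −0.11 and 0.00. In DU145, 8 of the 39 members changed sign under another scaling, all with a change of at most 0.22 in size, and no member did so in PC-3.

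The promoters of 4 of the 7 members that passed the rule, ABCA1, ABCG4, ABCE1 and ABCA5, are shown here to set them beside the responses that follow. ABCA10 and ABCA13 passed and have entries too, which are described but not shown. The sequences come from RefSeq (GRCh38.p14, 250 bases before to 50 after the transcription start), which is another build than the hg19 named for the data, and 34 of the 42 members had an entry. ABCA4, ABCA8, ABCB4, ABCC1, ABCC3 and ABCG1 were among those with none. ABCA1 lies at chr9:104928106-104928405 (minus strand), ABCG4 at chr11:119148802-119149101 (plus, the upstream of 2 starts), ABCE1 at chr4:145098061-145098360 (plus) and ABCA5 at chr17:69327084-69327383 (minus). Capitals mark letters that match 1 of 5 motifs on either strand.
ABCA1: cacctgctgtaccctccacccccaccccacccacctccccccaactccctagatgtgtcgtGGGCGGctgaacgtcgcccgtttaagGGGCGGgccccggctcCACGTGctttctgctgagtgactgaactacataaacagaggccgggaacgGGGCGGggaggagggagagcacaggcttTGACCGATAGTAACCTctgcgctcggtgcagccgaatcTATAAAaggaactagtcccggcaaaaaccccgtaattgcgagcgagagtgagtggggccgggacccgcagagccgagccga
ABCG4: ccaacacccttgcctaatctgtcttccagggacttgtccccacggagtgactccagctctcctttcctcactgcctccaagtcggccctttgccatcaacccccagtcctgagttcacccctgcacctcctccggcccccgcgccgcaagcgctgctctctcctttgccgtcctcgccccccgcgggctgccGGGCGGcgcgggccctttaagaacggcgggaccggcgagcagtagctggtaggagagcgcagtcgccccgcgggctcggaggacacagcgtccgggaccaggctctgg
ABCE1: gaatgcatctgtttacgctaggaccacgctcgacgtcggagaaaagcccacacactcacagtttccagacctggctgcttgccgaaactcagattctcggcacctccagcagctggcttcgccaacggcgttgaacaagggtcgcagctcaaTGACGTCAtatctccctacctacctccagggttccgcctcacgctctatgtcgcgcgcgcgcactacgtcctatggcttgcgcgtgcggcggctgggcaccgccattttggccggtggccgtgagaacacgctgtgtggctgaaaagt
ABCA5: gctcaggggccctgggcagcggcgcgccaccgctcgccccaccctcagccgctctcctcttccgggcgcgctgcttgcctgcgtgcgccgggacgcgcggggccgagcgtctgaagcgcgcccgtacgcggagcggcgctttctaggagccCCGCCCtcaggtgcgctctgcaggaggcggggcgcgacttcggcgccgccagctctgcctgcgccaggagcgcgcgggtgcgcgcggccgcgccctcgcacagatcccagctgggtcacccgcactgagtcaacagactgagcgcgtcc

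The motifs searched were CACGTG (an E-box), GGGCGG (a GC box), TATAAA, and TGACGTCA, a cAMP response element. The fifth was a DR4, a spaced repeat of the kind that LXR binds, searched as AGGTNA followed after any 4 bases by NGGTCA. Its letters were written to take in the repeat known in the ABCA1 promoter, and TGACGTCA was chosen after the ABCE1 sequence was read. Among 35116 promoters of all genes, 7.26% held CACGTG, 45.0% GGGCGG, 11.5% TATAAA, 1.85% TGACGTCA and 0.0940% the spaced repeat. Of the 50 member promoters, 9 held CACGTG, 25 GGGCGG, 8 TATAAA, 1 TGACGTCA (ABCE1) and 1 the spaced repeat (ABCA1). The ABCA1 window also held 1 E-box, 1 TATA motif and 3 GC boxes. The ABCG4 and ABCA5 windows shown each held 1 GC box and none of the other motifs. GC content was 62.7%, 68.3%, 59.7% and 76.3% in the 4 windows shown, against a median of 58.7% over all promoters. The downstream start of ABCG4, not shown, had 74.0% and held 2 GC boxes and none of the other motifs. The windows of ABCA13 and ABCA10 lie below that median. ABCA13 had 48.3% and held none of the motifs. The 2 starts of ABCA10 had 25.0% and 32.3%, and 1 of them held TATAAA.

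Drug and conjugate efflux genes were read mainly from the ABCC group. Of 10 genes on this list 8 were listed in each line, and 0 passed the 2-fold rule in either. The shares over all genes were 0.999% higher and 8.01% lower in DU145, and 7.15% and 8.68% in PC-3. ABCC3 (ENSG00000108846, chromosome 17), which exports glucuronides and bile salts, read 259 then 256 CPM in DU145 and 95.4 then 170 CPM in PC-3. It was level in DU145 and higher with the compound in PC-3 (ratio 1.78, 1.70 to 1.86). ABCC1, which encodes the conjugate exporter MRP1, read 139.9 then 137 CPM in DU145 and 79.2 then 67.3 CPM in PC-3. ABCC4, an exporter of cyclic nucleotides and nucleotide analogues, read 105.7 then 105.8 CPM in DU145 and 55.2 then 39.5 CPM in PC-3. It was the drug efflux gene with the lowest PC-3 ratio among those over 1 CPM, at 0.716 (0.662 to 0.773). ABCC5, which exports cyclic GMP and nucleotide analogues, read 73.7 then 72.6 CPM in DU145 and 75.9 then 112 CPM in PC-3, where the ratio was 1.48 (1.40 to 1.56).

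ABCC10, a broad drug exporter, was the member of this list with a ratio over 1 beyond counting error in both lines. It read 50.5 then 62.6 CPM in DU145 (ratio 1.24, 1.15 to 1.33), and 27.4 then 37.1 CPM in PC-3 (ratio 1.36, 1.24 to 1.49). ABCC2, which encodes the apical conjugate exporter MRP2, read 6.38 then 9.60 CPM in DU145 and 1.09 then 0.935 CPM in PC-3. ABCC11, an exporter of cyclic nucleotides and lipophilic anions, read 2.61 then 0.879 CPM in DU145, and its change of −0.94 was just short of 2-fold although its ratio was 0.337 (0.205 to 0.537). Here the added 1 CPM decided the call. In PC-3 ABCC11 had 2 and 4 fragments.

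The best-known multidrug pumps were scarce. ABCG2 (ENSG00000118777), the breast cancer resistance protein, read 4.57 then 4.82 CPM in DU145 (ratio 1.05, 0.822 to 1.35), and was not listed in PC-3. ABCB1 (ENSG00000085563), P-glycoprotein, was not listed in DU145. In PC-3 it had 0 fragments with DMSO, a count that allows up to 0.102 CPM, and 5 fragments with OICR-9429, at 0.180 CPM. No fold is given for so few fragments. Summed over the listed drug efflux genes, the level was 643 then 649 CPM in DU145 and 334 then 427 CPM in PC-3, and ABCC3 held the largest part in each library.

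**Figure D1:**
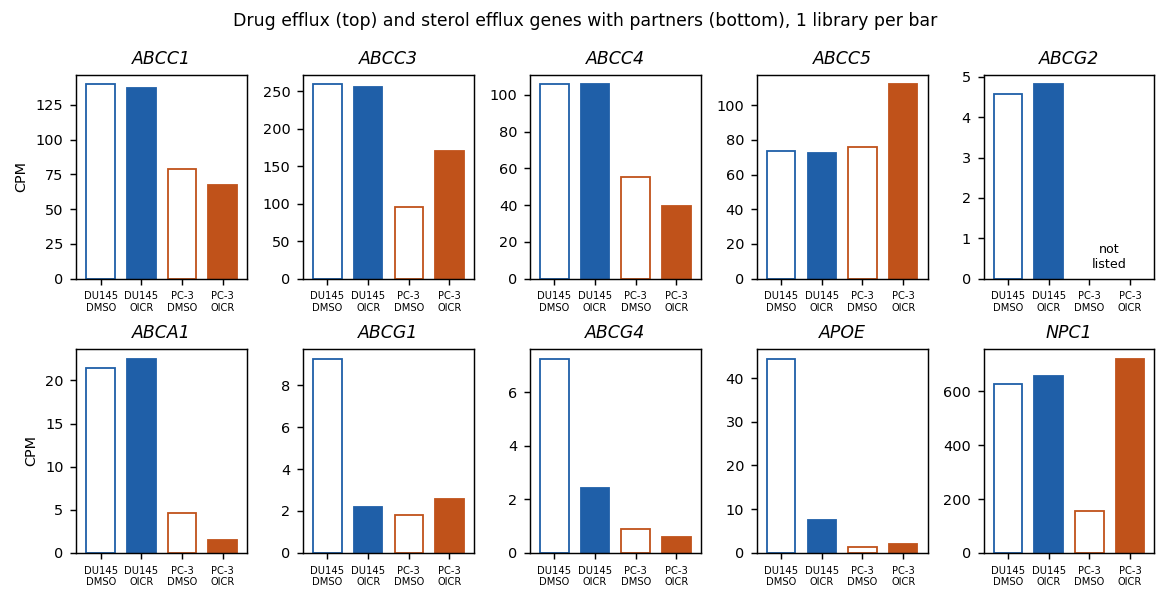
Levels in CPM of 5 drug efflux genes (top) and of 3 sterol efflux genes with APOE and NPC1 (bottom), 1 library per bar, with open bars for DMSO and filled bars for OICR-9429. ABCC1, ABCC3, ABCC4 and ABCC5 are nearly level in DU145, ABCG1, ABCG4 and APOE are lower with OICR-9429 in DU145, and ABCA1 is lower in PC-3.

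Of the sterol efflux genes over 1 CPM, 2 of 3 were lower with OICR-9429 in DU145 and 1 of 2 in PC-3, against 8.01% and 8.68% of all genes. ABCG1 (ENSG00000160179, chromosome 21), which loads cholesterol onto lipoprotein particles, read 9.28 then 2.18 CPM in DU145 (ratio 0.235, 0.175 to 0.311). ABCG4 (ENSG00000172350, chromosome 11), its close relative, read 7.25 then 2.43 CPM in DU145 (ratio 0.335, 0.251 to 0.442). Both kept their 2-fold difference under TMM and median-of-ratios scaling. In PC-3 ABCG1 read 1.81 then 2.59 CPM, with a ratio of 1.43 whose interval (0.991 to 2.08) includes 1, and ABCG4 was below 1 CPM in both libraries.

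ABCA1 (ENSG00000165029, chromosome 9), which moves cholesterol and phospholipid to apolipoprotein A-I, had the reverse order of lines. It read 21.5 then 22.5 CPM in DU145 (ratio 1.05, 0.936 to 1.17), and 4.61 then 1.44 CPM in PC-3 (ratio 0.312, 0.214 to 0.448). ABCG1 and ABCG4 were thus low and ABCA1 level in treated DU145, and ABCA1 low in treated PC-3. ABCG5 and ABCG8, the partners that return plant sterols to gut and bile, had at most 3 fragments in any library where they were listed.

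The other genes of sterol handling were read from a list of 20 regulators and partners. In DU145, 3 of 18 with at least 1 CPM were higher by 2-fold and 1 lower, and in PC-3, 7 of 18 were higher and 0 lower. Of all genes, 0.999% were higher and 8.01% lower in DU145, and 7.15% and 8.68% in PC-3. APOE, the apolipoprotein that accepts exported cholesterol, was the lower one, at 44.5 then 7.59 CPM in DU145, and read 1.30 then 1.94 CPM in PC-3. NPC1 and NPC2, which release cholesterol from lysosomes, were higher in PC-3, at 157 then 722 CPM and 41.4 then 136 CPM. In DU145 NPC1 was level, at 629 then 659 CPM, and NPC2 read 121 then 167 CPM. Across both lines 2 of the 18 members tested rose and 0 fell, against 0.12% and 1.16% of all genes tested. Of the 2 that rose, INSIG1 encodes a protein that retains the regulator SREBP in the endoplasmic reticulum. It read 37.3 then 237 CPM in DU145 and 29.2 then 151 CPM in PC-3. It rose by 2.48 ± 0.30 (SE, limma, adjusted p = 0.00098). The LXR genes and further LXR targets of this list were looked at after their values were seen. NR1H2 read 82.7 then 81.1 CPM in DU145 and 116 then 158 CPM in PC-3. NR1H3 read 5.84 then 4.36 CPM in DU145 and 8.26 then 8.56 CPM in PC-3. MYLIP, a ligase that degrades the LDL receptor, read 32.8 then 17.8 CPM in DU145 and 4.74 then 4.93 CPM in PC-3, under 2-fold in both. SREBF1 read 49.2 then 71.9 CPM in DU145 and 71.2 then 64.4 CPM in PC-3. LPCAT3 read 13.7 then 14.0 CPM in DU145 and 8.26 then 7.05 CPM in PC-3. These targets thus did not share a direction in DU145, and the activity of LXR was not tested.

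The remaining ABCA genes, which move lipids within or between membranes, had changes below 0 for 8 of 11 in DU145, where 17055 of all 25338 listed genes were below 0, and above 0 for 8 of 11 in PC-3, where 11790 of 23313 were. The DU145 count is near that of all genes. By the rule of size, 0 of 5 over 1 CPM differed in DU145 and 3 of 8 in PC-3, all higher. Of all genes, 0.999% were higher and 8.01% lower in DU145, and 7.15% and 8.68% in PC-3. The summed level of the remaining ABCA genes was 446 then 312 CPM in DU145 and 191 then 328 CPM in PC-3. ABCA13 (ENSG00000179869, chromosome 7), the longest ABC gene here with 19074 bases of exon, read 11.4 then 5.24 CPM in DU145 (ratio 0.460, 0.376 to 0.561). In PC-3 it read 37.7 then 81.0 CPM (ratio 2.15, 1.996 to 2.31). ABCA5 (ENSG00000154265), a lysosomal and endosomal transporter, read 13.9 then 7.88 CPM in DU145 (ratio 0.567, 0.479 to 0.671), and 18.8 then 47.6 CPM in PC-3 (ratio 2.53, 2.28 to 2.79). Both genes were thus on opposite sides of 1 in the 2 lines, beyond counting error in each.

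The same order of lines held for 2 more abundant members, below 2-fold. ABCA2, an endosomal lipid transporter of neural tissue, read 251 then 169 CPM in DU145 and 47.6 then 59.9 CPM in PC-3. ABCA7, a phospholipid transporter linked to Alzheimer's disease, read 79.2 then 48.6 CPM in DU145 and 35.5 then 46.7 CPM in PC-3. ABCA3, the surfactant lipid transporter of lamellar bodies, read 87.9 then 78.8 CPM in DU145, a change of −0.16 (0.09 when scaled by median of ratios), and 45.7 then 83.5 CPM in PC-3. ABCA12, which loads lipids into skin granules, and ABCA4, the retinal flippase, stayed below 1 CPM in all libraries.

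ABCA5 belongs to a row of 5 like genes on chromosome 17, in the order ABCA8, ABCA9, ABCA6, ABCA10 and ABCA5, all on the minus strand. ABCA10 (ENSG00000154263) read 0.652 then 0.984 CPM in DU145 and 2.05 then 6.66 CPM in PC-3 (ratio 3.25, 2.42 to 4.43). ABCA6 read 0.239 then 1.04 CPM in PC-3 (ratio 4.37, 1.87 to 11.8), and ABCA9 read 0.341 then 0.827 CPM (ratio 2.43, 1.11 to 5.71). ABCA8 was the exception, at 1.33 then 0.504 CPM (ratio 0.379, 0.190 to 0.713). Exons of ABCA10 and ABCA5 overlap on the same strand in GENCODE 29, so reads may be shared between them, and the part of this in the ABCA10 values was not tested. Next to the row, MAP2K6, a kinase of the p38 pathway beyond ABCA5, read 12.1 then 2.52 CPM in PC-3. On the other side FAM20A read 0.580 then 2.95 CPM in PC-3, and PRKAR1A, a regulatory subunit of protein kinase A, read 348 then 323 CPM. Further out, WIPI1 read 19.1 then 81.4 CPM, SLC16A6 0.716 then 6.08 CPM and, beyond MAP2K6, KCNJ2 1.501 then 9.39 CPM. Beyond KCNJ2, SOX9 read 99.8 then 123 CPM, under 2-fold. In PC-3 the stretch thus held genes that were higher, with MAP2K6 and ABCA8 lower and PRKAR1A nearly level. By the rule of size ABCA6, ABCA8 and ABCA9 did not pass. With 0.1 CPM added instead of 1, ABCA6 passed as higher and ABCA8 as lower. Of all genes 7.15% were higher in PC-3, and whether the stretch differs from them was not tested.

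**Figure D2:**
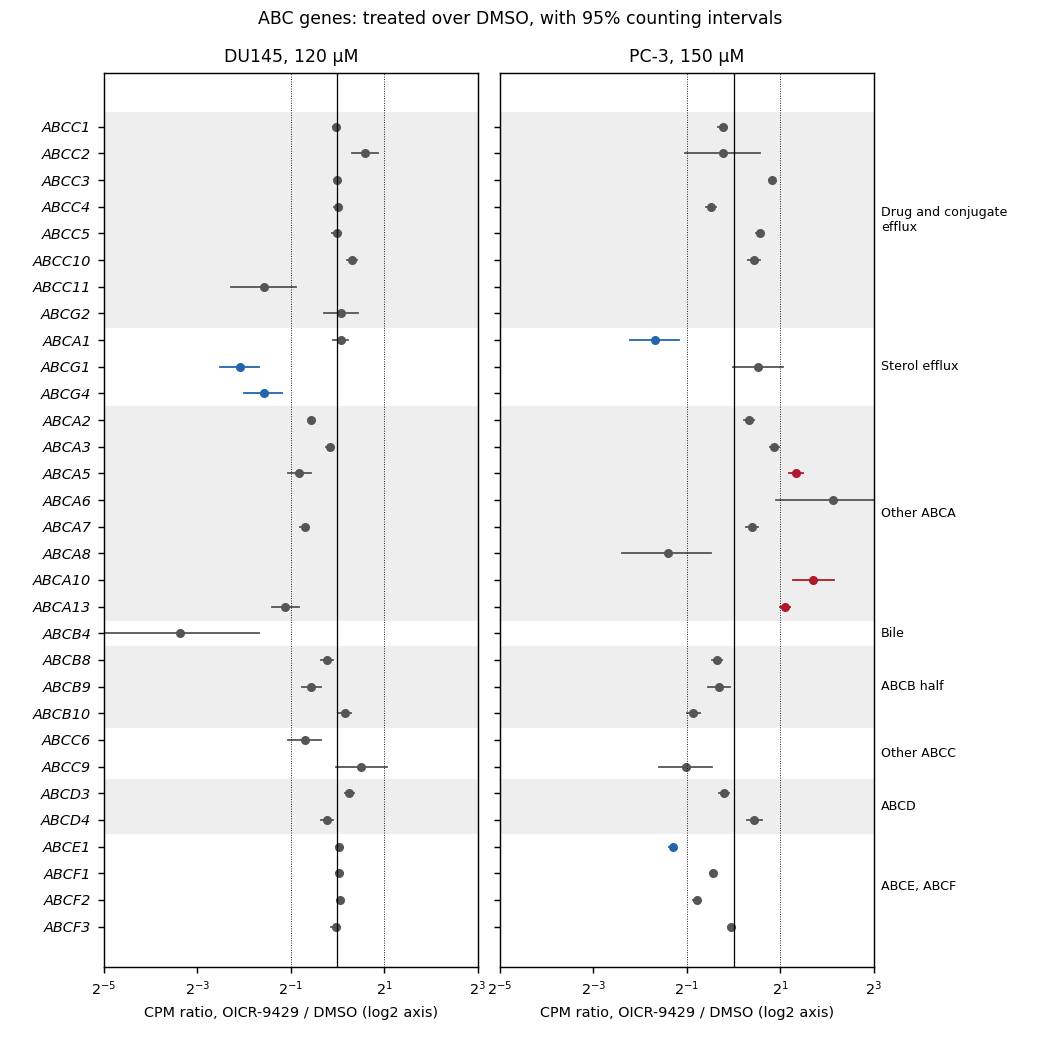
Ratio of CPM, OICR-9429 over DMSO, in DU145 (left) and PC-3 (right) for ABC genes with at least 1 CPM in a library of that line, grouped by role (members not reported here are left out), with 95% counting intervals (those of ABCB4 and ABCA6 run past the axis). Blue marks members lower and red members higher by the 2-fold rule, which adds 1 CPM to each level, so low genes such as ABCC11 can lie past the dotted 2-fold lines in grey.

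Of ABCE1 and the ABCF genes, ABCE1 was lower by 2-fold in treated PC-3, and 0 of the 4 differed by 2-fold in DU145. Over all genes 8.68% were lower in PC-3, and 0.999% were higher and 8.01% lower in DU145. ABCE1 (ENSG00000164163, chromosome 4), which splits ribosomes into subunits after termination, read 165 then 168 CPM in DU145 (ratio 1.02, 0.977 to 1.06). In PC-3 it read 182 then 73.9 CPM (ratio 0.406, 0.386 to 0.428). ABCF2 read 109.8 then 114 CPM in DU145 and 166 then 96.1 CPM in PC-3 (ratio 0.578, 0.551 to 0.606). ABCF1, a partner of the initiation factor eIF2, read 114 then 118 CPM in DU145 and 203 then 150.2 CPM in PC-3 (ratio 0.738, 0.709 to 0.768). ABCF3 was level in both lines, at 62.2 then 60.6 CPM in DU145 and 89.2 then 86.6 CPM in PC-3. The 4 genes had median changes of 0.03 in DU145 and −0.61 in PC-3. A list of 6 partners on the ribosome (PELO, HBS1L, ETF1, EIF2S1, EIF2AK4 and GCN1) had medians of 0.22 and −0.45, with 0 past 2-fold in either line.

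By median change, the ABCB transporters of mitochondria and lysosomes differed less than ABCE1 and the ABCF genes in PC-3, and more in DU145. ABCB10, a mitochondrial inner membrane protein of haem synthesis, read 32.5 then 36.2 CPM in DU145 and 46.8 then 25.8 CPM in PC-3 (ratio 0.551, 0.503 to 0.604). ABCB8, a subunit of a mitochondrial potassium channel, read 43.6 then 37.3 CPM in DU145, a change that turned positive under median-of-ratios scaling, and 62.0 then 48.6 CPM in PC-3. ABCB9, a lysosomal peptide transporter, read 16.7 then 11.3 CPM in DU145 and 12.1 then 9.82 CPM in PC-3. The listed genes of this group had medians of −0.22 in DU145 and −0.28 in PC-3. All 5 were below 0 in PC-3, where 11523 of all 23313 listed genes were, and ABCB6 had only 11 then 8 fragments there. By the rule of size 0 of 4 over 1 CPM passed in either line. Of all genes, 0.999% were higher and 8.01% lower in DU145, and 7.15% and 8.68% in PC-3.

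The ABCD genes, which carry fatty acids into peroxisomes or, for ABCD4, cobalamin out of lysosomes, showed 0 of 3 past 2-fold in each line. ABCD3 read 54.7 then 65.1 CPM in DU145 and 57.6 then 50.1 CPM in PC-3. ABCD4 read 37.8 then 32.5 CPM in DU145, a sign that turned under median-of-ratios scaling, and 18.4 then 25.0 CPM in PC-3. Of their 6 peroxisomal partners 0 passed the rule in DU145 and 1 in PC-3, where PEX3, a membrane biogenesis factor, read 21.0 then 9.21 CPM. These counts stand beside 0.999% of all genes higher and 8.01% lower in DU145, and 7.15% and 8.68% in PC-3.

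Of the last members, ABCC6, a liver protein that releases ATP, read 6.34 then 3.90 CPM in DU145 and had 10 and 1 fragments in PC-3. It has 2 near-identical pseudogenes, and ABCC6P1 (2.50 then 0.703 CPM) and ABCC6P2 (1.49 then 0.246 CPM) were themselves listed in DU145, so its level is uncertain. ABCC9, a sulphonylurea receptor of potassium channels, read 1.81 then 2.57 CPM in DU145 and 2.90 then 1.44 CPM in PC-3. ABCB4, the phosphatidylcholine flippase of bile, had 30 and 3 fragments in DU145 (ratio 0.0970, 0.0189 to 0.312), and 1 and 2 fragments in PC-3. Below 1 CPM in all libraries were ABCA4, ABCA9, ABCA12, ABCB1, ABCB6, ABCB11 (the bile salt pump of liver), ABCD2, ABCG5 and ABCG8, with ABCA4 the highest at 0.979 CPM in DU145 with DMSO. RefSeq also holds pseudogenes of ABCA3, ABCB10, ABCE1 and ABCF2, whose reads may be split. The strand setting of the counting is not known here, and exons of ABCE1 overlap ANAPC10 and OTUD4 on the other strand, those of ABCC10 overlap DLK2, those of ABCC11 overlap LONP2, and those of ABCB9 overlap ARL6IP4 and OGFOD2.

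ABC genes whose symbols do not start with ABC were read apart. TAP1, a subunit of the peptide transporter of MHC class I, read 115 then 80.3 CPM in DU145 and 38.0 then 125 CPM in PC-3, and was the 1 of these that passed the rule, in PC-3. Of 10 regulators of drug efflux genes, 0 of 9 over 1 CPM passed in DU145 and 1 of 8 in PC-3. That 1 was FOXO3, a forkhead factor, at 55.5 then 117 CPM. Of 4 drug efflux or sequestration genes outside the family, 0 passed in either line. For comparison, 0.999% of all genes were higher and 8.01% lower in DU145, and 7.15% and 8.68% in PC-3.

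With the lines as the only replicates of the treatment, 0 of the 28 members tested rose or fell (limma with trend on log2(CPM + 1), line as a covariate, Benjamini-Hochberg adjusted over 14976 genes), against 0.12% and 1.16% of all genes tested. At an unadjusted p under 0.05 the count was 0 with limma, with edgeR and with DESeq2. The lowest adjusted p was that of ABCA10 (0.80 ± 0.40, SE, limma, adjusted p = 0.61, with 0.48 to 0.73 over the other settings and 1.00 with no line term). ABCG4 had −0.76 ± 0.40 (limma, adjusted p = 0.63) and ABCE1 −0.63 ± 0.35 (limma, adjusted p = 0.68). Only 1 residual degree of freedom was left, and a p that misses the threshold does not show that a gene was unaltered. For members such as ABCA13, ABCA5, ABCA2 and ABCA7 the average joins ratios on opposite sides of 1, beyond counting error in each line. ABCG1 had opposite signs too, but its PC-3 interval includes 1. Whether the lines differed in response could not be tested.

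**Figure D3:**
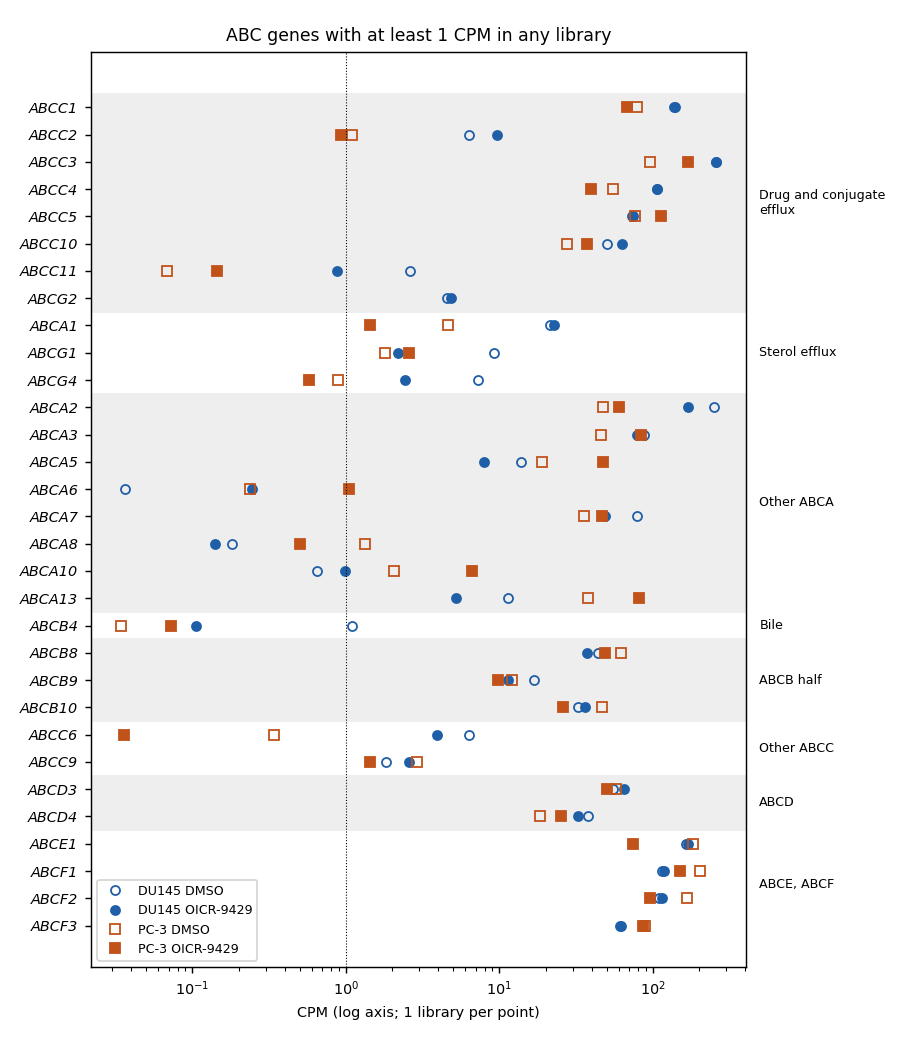
Level in CPM (log axis) of 31 ABC genes with at least 1 CPM in any library, grouped by role, with circles for DU145, squares for PC-3, open symbols for DMSO and filled ones for OICR-9429. For ABCA1 and ABCC2 the symbols of the lines lie further apart than those of the treatments.

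The lines differed from each other in more ABC genes than the treatment did. In the DMSO libraries, 11 of 31 members with at least 1 CPM (35.5%) were lower by 2-fold in PC-3 than in DU145, against 24.9% of all genes, and 2 (6.45%) were higher, against 11.0%. Under TMM or median-of-ratios scaling these counts were 8 and 5, so the higher share of the called members went from 15.4% to 38.5%. The shares of all genes were not recounted under those scalings. With both treatments in 1 fit, 8 of 28 (28.6%) were lower in PC-3 (limma, adjusted p under 0.05), against 20.5% of all genes, and 4 (14.3%) were higher, against 11.2%. The libraries of a line share its medium and its cells, so the line cannot be told apart from the medium, and treatments stand in for replicates.

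Among the members higher in PC-3 was ABCA13, by 2.68 ± 0.46 (SE, limma, adjusted p = 0.00067), as were ABCA5 (1.43 ± 0.47, limma, adjusted p = 0.033) and ABCA10 (1.42 ± 0.40, limma, adjusted p = 0.015). All 3 are lipid transporters of the ABCA group, and ABCA5 and ABCA10 are neighbours on chromosome 17.

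ABCA1 was the member furthest below in PC-3, with −2.64 ± 0.46 (limma, adjusted p = 0.00073). The other sterol exporter that passed was ABCG4 (−1.62 ± 0.40, limma, adjusted p = 0.0069), whereas ABCG1 did not (−0.85 ± 0.49, limma, adjusted p = 0.20). ABCC6 (−2.35 ± 0.36, limma, adjusted p = 0.00028), ABCC2 (−2.14 ± 0.41, limma, adjusted p = 0.0015) and ABCA2 (−1.93 ± 0.32, limma, adjusted p = 0.00052) were lower too. Against 20.5% of all genes tested, 4 of the 6 drug efflux genes tested were lower in PC-3 on the deposited scale. Those were ABCC2, ABCC4 (−1.16 ± 0.31, limma, adjusted p = 0.011), ABCC1 (−0.91 ± 0.30, adjusted p = 0.032) and ABCC3 (−1.01 ± 0.33, adjusted p = 0.033). Under median-of-ratios scaling the last 3 no longer passed (limma, adjusted p = 0.072, 0.17 and 0.15), while ABCC2 did under each alternative.

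**Figure D4:**
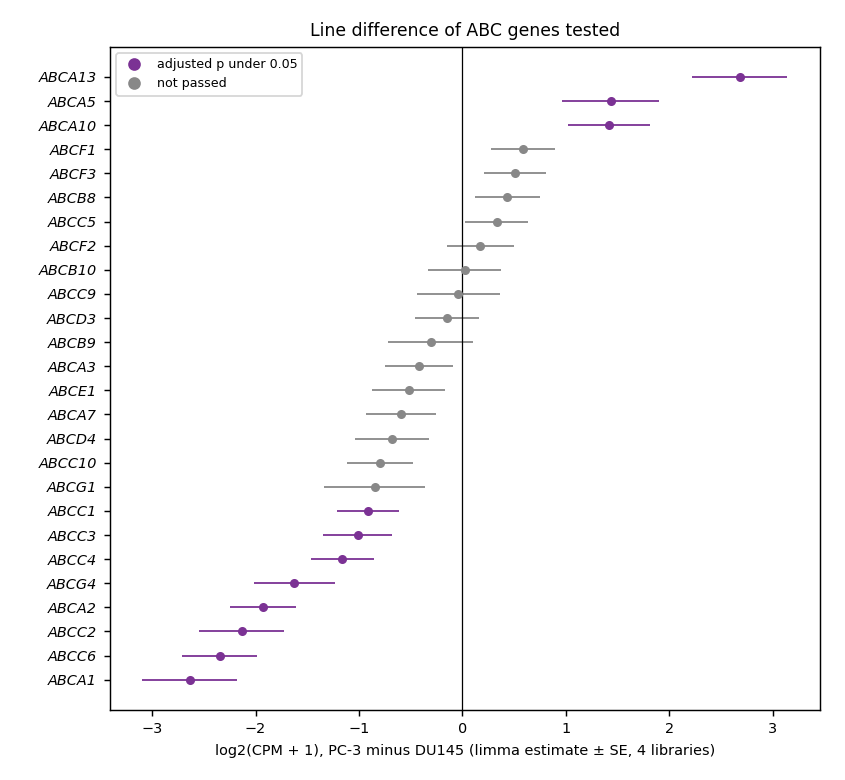
Difference in log2(CPM + 1) between PC-3 and DU145 for 26 of the 28 ABC genes tested, as limma estimates with their SE over 4 libraries, in purple where the adjusted p was under 0.05. Of the genes drawn, ABCA13 lies furthest to the right, at 2.68, and ABCA1 furthest to the left, at −2.64.

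Levels of different genes were compared per kilobase of exon. In DU145 with DMSO the order was led by ABCC3 at 27.0 CPM per kilobase, ABCE1 at 26.4, ABCF2 at 26.3, ABCF1 at 25.3, ABCA2 at 21.8 and ABCC1 at 18.5. The first 4 lie close together, and their order has no replicate check. In PC-3 with DMSO the ribosome-associated genes led, with ABCF1 at 45.0 CPM per kilobase, ABCF2 at 39.8 and ABCE1 at 29.05, while ABCF3 stood at 17.1 and ABCB10 at 11.0. ABCC1 stood at 10.5 and ABCC3 at 9.92 CPM per kilobase there. With OICR-9429 ABCC3 moved to 17.6 CPM per kilobase in PC-3, above ABCE1 at 11.8. The sterol exporters were far lower per kilobase in DU145 with DMSO, with ABCA1 at 1.89, ABCG1 at 1.52 and ABCG4 at 1.16.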

How the data were processed

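Per the file headers and values, the authors deposited 1 table per library with Ensembl identifiers and values in CPM. Among tools, HISAT2 2.1.0, HTSeq 0.6.1 and bcl2fastq 2.19.1 appear in the submitters' processing notes, beside the build hg19 and with no role or order. No source used here states strand settings or annotation. Every value (100% within 0.01 step) was a whole multiple of 1 step, so whole reads were recovered. They were even except values of exactly 1 step, found only where the other library of the line had at least 10 reads, and these were taken as 0. Fragments hold 2 reads. At this depth 3 fragments correspond to 0.102 to 0.109 CPM, and intervals and floors cover counting error only, since PCR copies are not independent molecules. Genes with next to no reads in a line are missing from its tables and are called not listed.

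Names came from current symbols (27302 of 27658 identifiers) and GENCODE 29, which gave types and exon lengths. Groups came from the labels. Nothing says that libraries came from separate cultures. Within a line, ratios of fragments have exact conditional binomial intervals, and no test was made. For tests over both lines, log2(CPM + 1) was modelled on line and treatment by limma 3.58.1 (trend), using 14976 genes listed in all 4 libraries and over 1 CPM in at least 2 (1 residual and 12.8 prior degrees of freedom). Its p-values therefore rest mostly on the trend over all genes. The limma and edgeR fits were also run on simulated data with the same change in both lines. That run does not cover genes whose lines differ in response. Alternatives were a pseudocount of 0.1, a minimum of 5 CPM or none, TMM and median-of-ratios scaling, edgeR 4.0.16 and DESeq2 1.42.0 on fragments, and no line term. The members and lists were chosen with earlier results of these data known. A few genes are not reported here by name but remain in the counts, sums and medians. The other members are all reported, and other pathway genes when past the size rule or the test, at most 5 per list. The LXR genes and targets are given beside these.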

Additional observations from a re-analysis of the deposited data

Results flagged for a closer look

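ABCA13 differed by −0.99 in DU145 and by 1.08 in PC-3 on the log2(CPM + 1) scale, and ABCA5 by −0.75 and 1.29. Both are named here because the lines moved in opposite directions by at least 0.5 each, under every scaling too. The difference between the lines was not tested, since each line has 1 library per treatment.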

How the results depend on the processing

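No paired analysis was possible because the labels give no replicate numbers, beyond the line term of the treatment test, which already compares the 2 libraries within each line. Leaving out a library leaves no residual degree of freedom. With a pseudocount of 0.1, 5 ABC genes instead of 2 were lower in DU145 (1 drug efflux gene, ABCC11, instead of 0, with ABCA13 and ABCB4 as the others added). In PC-3 that setting gave 4 higher instead of 3, with ABCA6 added, and 3 lower instead of 2, with ABCA8 added. With a minimum of 5 CPM, 1 ABC gene instead of 2 was lower in PC-3 (0 sterol efflux genes instead of 1). Between lines, 5 instead of 8 members were lower in PC-3 under median-of-ratios scaling and with DESeq2, which put the higher share of calls at 44.4% instead of 33.3%. All genes shifted the same way, from 1681 higher and 3068 lower calls with limma on the deposited scale. They gave 2233 and 2050 under median-of-ratios scaling, and 2121 and 2135 with DESeq2. Between the DMSO libraries, 5 instead of 2 were higher in PC-3 under TMM and median-of-ratios scaling, alternatives chosen after seeing the data. No member passed the treatment test under any alternative, with 1 at an unadjusted p under 0.05 under TMM, median-of-ratios and no minimum, and 0 under the others. Over all genes the treatment term gave 18 higher and 173 lower calls with limma, 13 and 157 with edgeR, 59 and 242 with DESeq2, 9 and 90 under median-of-ratios scaling, and 0 of either with no line term (230 at an unadjusted p under 0.05). Of 116 values for genes that passed the rule or the test, 107 kept their call or moved within counting error, 9 lost their call (ABCC1, ABCC3 and ABCC4 in the line comparison) and 0 reversed. The cause was not tested. Depth limits ABCB1, ABCB4, ABCG5 and ABCG8, which had few fragments.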
